A study of Mus musculus with 3 samples.

Results

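The cytosolic ribosome of mouse heart tubes at embryonic day 9.5 is described here through the messenger RNAs of its proteins, in Sox7-null and wild-type tissue. Members were the gene symbols that begin with Rpl or Rps followed by a number (with at most 1 closing letter a, x, l or y), together with Rplp0, Rplp1, Rplp2 and Rpsa, provided that at least 1 library held 10 reads or more. Of 23337 genes in the files 81 matched and 77 were members: 32 of the small subunit, 42 of the large subunit and 3 of the stalk. All 77 passed the filter on low counts and were tested. The 4 matching symbols under the read minimum were Rpl10l and Rpl26 with 0 reads in every library, Rpl30 with 3, 2 and 3 reads, and Rpl39l with 4, 3 and 6 reads, where values given in threes are those of both null libraries and then the wild type. A count of 0 allows up to 3 reads. Just inside the minimum lay Rpl3l with 8, 9 and 15 reads and Rps27 with 7, 19 and 15.

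The series compared heart tubes of 2 genotypes by RNA-seq of total RNA, with 2 libraries labelled Sox7-null and 1 labelled wild type. Both genotypes were taken at the same embryonic day, and the labels name no strain, treatment, Cre driver or sex. They do not say whether a library holds 1 embryo or a pool, so the spread between the 2 null libraries, on which every p-value rests, may be technical. With a single wild-type library, its variation was taken to equal that of the nulls. Sox7, the deleted gene, which encodes a transcription factor of endothelial cells and endocardium, was counted with 2 and 7 reads in the nulls and 222 in wild type.

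The cytosolic ribosome has a small subunit, which reads the messenger RNA, and a large subunit, which joins the amino acids. The messenger RNAs of their proteins are abundant and short. Many of these messenger RNAs begin with a C followed by a run of pyrimidines, the 5′ terminal oligopyrimidine (TOP) tract, through which the kinase complex mTORC1 and the RNA-binding protein Larp1 control their translation. Growing tissues such as the embryonic heart need many new ribosomes.

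Runs of pyrimidines near the annotated start, which the rule did not use, were searched for in the members. RefSeq promoters (GRCm38.p6) were found for 58 of the 77 members, and the first entry listed for a gene was used. Runs had at least 8 bases, each C or T and the first a C, within 50 bases of the annotated start. The coding strand has the sequence of the message. On it 47 of these 58 members (81.0%) held such a run, against 28.7% of all 27025 promoters. Of the 47 runs, 10 lay wholly before the annotated start, 12 reached across it and 25 began at it or after it, so a run found here is not shown to be the first bases of a message. On the opposite strand 12 members (20.7%) and 30.8% of all promoters held such a run. The 6 runs below belong to members that had the largest falls or the rise described further on, and to Rps6. Capitals mark the run, and each sequence reads 5′ to 3′ on the coding strand.
Rps27l (chr9:66946058-66946078, plus strand): cctccaCTCCTCTCCactcct
Rps12 (chr10:23787185-23787207, minus strand): cgccggCCTTTTCCCCTgccgcc
Rpl27 (chr11:101442197-101442219, plus strand): tcctcgCTCCTCCCTCCacacgc
Rps21 (chr2:180257407-180257428, plus strand): gagctaCTTCCTTTCTgcgctc
Rps6 (chr4:86857353-86857374, minus strand): gtcgggCCTCTTTTTCgtgacg
Rpl4 (chr9:64173407-64173433, plus strand): gcgtggCCTTCTCCTCTCCCCgtcatg
Counted from +1 at the annotated start, the run began at -22 in Rps27l and at -42 in Rpl27, both wholly before the start. It began at -1 in Rps6, at 9 in Rps12, at 27 in Rpl4 and at 35 in Rps21. The median log2 fold change, Sox7-null against wild type, was -0.54 in the 47 members with a run and -0.44 in the 11 without. Among the other tested genes with a promoter entry it was 0.040 in the 2831 with a run and 0.006 in the 7547 without.

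Reads assigned to genes numbered between 13139823 and 13789388 per library. Shares of reads are given here out of gene counts plus the lines of the count output that name no gene. Unaligned reads made up 0% of that total in every library. The wild-type library had more reads that did not align uniquely (22.3%, against 10.4% and 11.6% in the null libraries), and such reads are outside the gene counts. It also had a larger share of gene counts on the ribosomal RNA gene Rn45s (2.08%, against 0.654% and 0.926%). Although the extraction text speaks of retinal organoids, 5, 6 and 6 of 7 retina markers had no read in the 3 libraries. CPM are gene counts relative to library size. Sums over markers were not scaled by TMM, whereas the CPM of single genes were scaled by TMM throughout. At an edgeR adjusted p under 0.05, 11.3% of all genes tested were higher in Sox7-null and 10.2% lower. Cardiomyocyte markers summed to 28921, 27538 and 20535 CPM, with 4 of 7 higher in Sox7-null. The 6 endothelial markers summed to 383, 359 and 313 CPM, with 1 higher and 1 lower. Neural tube markers summed to 191.6, 196.5 and 103.2 CPM, with 1 of 2 tested higher and 0 lower. Epicardial markers summed to 230, 149 and 154 CPM, with 1 of 4 higher and 0 lower. Liver and foregut markers summed to 2.05, 1.47 and 43.1 CPM, with 5 of 6 lower and 2 and 1 of the 6 at 0 in the null libraries. The part of these differences in the results below was not tested. In bulk tissue, fewer cells of a type and less RNA per cell cannot be told apart.

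Ribosomal protein genes held a smaller share of gene counts, which leave out reads not uniquely aligned, in both null libraries. The 77 members held 10.42% of gene counts in the first null library (95% exact binomial interval 10.40 to 10.43), 10.35% in the second (10.34 to 10.37) and 13.69% in wild type (13.67 to 13.71). The null libraries lay close together and below the wild type, with a mean difference of -3.30 percentage points. The small subunit went from 6.42% in the wild type to 4.63% and 4.60%, and the large subunit from 6.59% to 5.30% and 5.25%. Intervals here and below reflect counting error alone: no molecular identifiers were counted, and several reads can stem from 1 molecule.

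Of the 77 members, 51 were lower and 1 higher in Sox7-null at an edgeR adjusted p under 0.05, where 10.2% and 11.3% of all 13334 genes tested were lower and higher. DESeq2 called 35 lower, all of them among the 51, and 0 higher (1 at an unadjusted p under 0.05), against 5.72% and 7.5% of all genes. The members' median standard error (SE) was 0.133, against 0.239 over all genes tested, so these shares are not compared at equal precision. The median log2 fold change of the members was -0.50, against 0.014 over all genes tested. It was -0.51 for each null library alone against the wild type. In CPM scaled by TMM, 72 members were below the wild type in both null libraries and 3 (Rpl3, Rpl4 and Rpl29) above it in both, against 43% and 43.1% of all genes. Rps4x and Rps27 had the wild type between the null libraries.

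**Figure D1:**
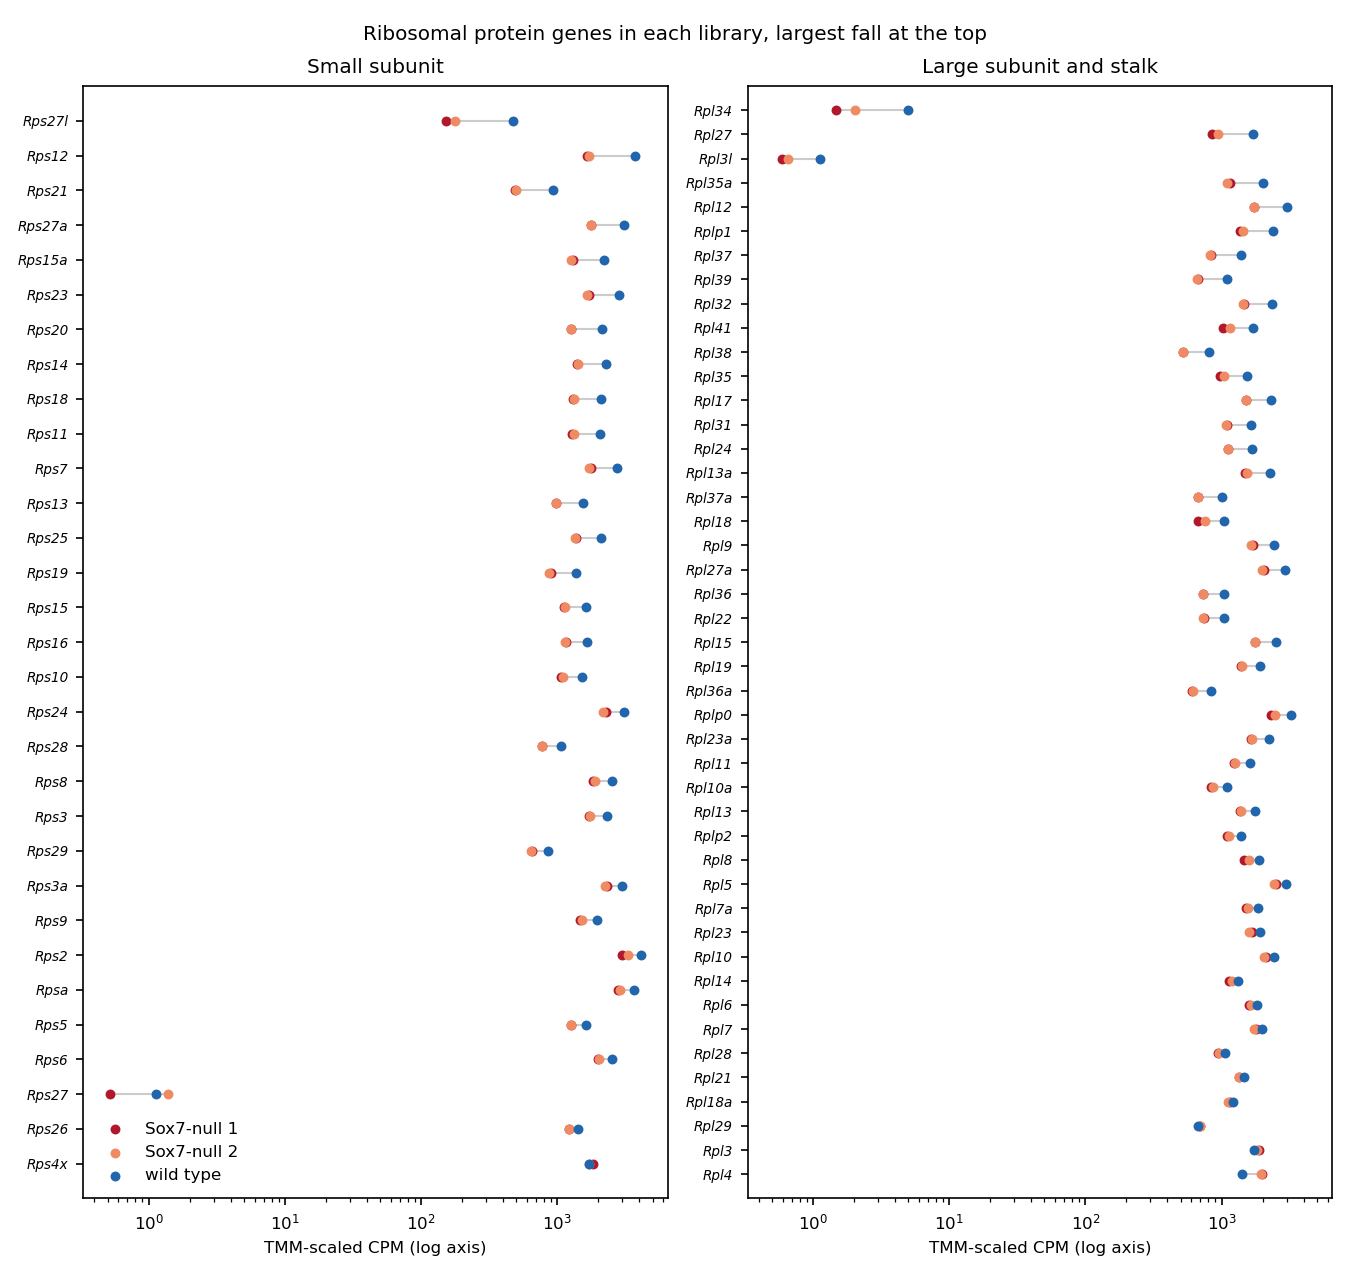
Level of the members in each library, with 1 member not shown, as TMM-scaled CPM on a log axis, with small-subunit genes on the left and large-subunit and stalk genes on the right, ordered from the largest fall to the largest rise in Sox7-null. Red and orange points are the 2 null libraries and blue points the wild type. For the well-counted genes the null points nearly coincide, and the wild type lies to their right for all but Rps4x, Rps27, Rpl29, Rpl3 and Rpl4.

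The 2 null libraries agreed closely on this set. Among the 74 members with at least 1000 reads in every library, the median absolute log2 ratio of Sox7-null 2 to Sox7-null 1 was 0.035. The largest was 0.21, for Rps27l. In the 1954 other tested genes with as many reads the median was 0.13. Primitive erythroid markers summed to 4626, 14493 and 13348 CPM, with 1 of 6 at 0 in every library and 0 of 5 tested past the threshold with edgeR. The part of erythroid cells in the member values was not tested. The remaining 3 members, Rpl34, Rps27 and Rpl3l, had at most 66 reads in any library.

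In the small subunit 25 of 32 members fell and 0 rose (0 also at an unadjusted p under 0.05, with edgeR, limma-voom and DESeq2), with a median log2 fold change of -0.53. Of all genes tested, 10.2% were lower and 11.3% higher. Rps12, a protein of the beak of the subunit, stood at 1655 and 1710 CPM in the nulls and at 3709 CPM in wild type. The null values lay close together and far under the wild type (log2 fold change -1.14 ± 0.12 (SE), edgeR adjusted p = 0.000196). Rps21 stood at 492 and 495 CPM against 932 CPM. It fell by 0.92 on the log2 scale. Rps27a, which encodes ubiquitin fused to a ribosomal protein, stood at 1768 and 1756 CPM against 3086 CPM. It fell by 0.81 on the log2 scale.

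Rps19, the gene most often mutated in Diamond-Blackfan anaemia, had 894 and 871 CPM against 1364 CPM and fell by 0.63 on the log2 scale. Rps25, needed for initiation at some internal ribosome entry sites, had 1366 and 1353 CPM against 2107 CPM and had a log2 value of -0.63 ± 0.13. Rpsa, which is also known as the laminin receptor precursor, had 2787 and 2867 CPM against 3654 CPM. Its fall of 0.37 on the log2 scale passed with edgeR (adjusted p = 0.044) and not with DESeq2 (adjusted p = 0.210). Rps6, the substrate of the S6 kinases, had 1976 and 2021 CPM against 2537 CPM and did not pass (log2 fold change -0.34 ± 0.13, edgeR adjusted p = 0.070). Rps4x, encoded on the X chromosome, had 1835 and 1710 CPM against 1723 CPM, with the wild type inside the range of the null libraries.

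Rps27l, which encodes a paralog of Rps27 and is known as a target of p53, had the largest fall of all members. It had 2072 and 2444 reads against 6235, or 154 and 177 CPM against 470 CPM. The log2 fold change was -1.51 ± 0.17 (edgeR adjusted p = 0.000217), and DESeq2 called it too. Its parent gene Rps27 had only 7, 19 and 15 reads, and the ratio of null to wild type was 0.893 (95% exact interval 0.456 to 1.81). The 2 genes are similar in sequence, so reads of the parent and of its copies may be divided among several places, and the values of both are uncertain.

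In the large subunit 24 of 42 members fell and 1 rose, against 10.2% and 11.3% of all genes, with a median of -0.50. Rpl27 had 854 and 935 CPM against 1692 CPM, a difference of -0.92 ± 0.14 on the log2 scale (edgeR adjusted p = 0.0011). Rpl38, which in the mouse embryo is needed for translation of a set of Hox messages, had 523 and 523 CPM against 802 CPM. It fell by 0.62 on the log2 scale. Rpl39, a small protein of the exit tunnel, had 670 and 661 CPM against 1089 CPM. Its log2 fold change was -0.71 ± 0.14. Rpl34 was counted with 20, 28 and 66 reads, so its fall (-1.50 ± 0.46 on the log2 scale) rests on few reads: the ratio was 0.375 (95% exact interval 0.253 to 0.552), and DESeq2 gave an adjusted p of 0.270.

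Rpl4, a core protein with an extension into the exit tunnel, was the member that rose. It had 1995 and 1932 CPM in the nulls and 1402 CPM in wild type, so both null values were above. Its log2 fold change was 0.49 ± 0.13 (edgeR adjusted p = 0.023), but DESeq2 gave an adjusted p of 0.087. Rpl3, which lies near the peptidyl transferase centre, had 1872 and 1826 CPM against 1720 CPM and did not pass (0.10 ± 0.13). The proteins that carry the 5S ribosomal RNA and bind Mdm2 did not pass either. Rpl5 had 2503 and 2427 CPM against 2975 CPM (log2 fold change -0.27 ± 0.12), and Rpl11 had 1242 and 1264 CPM against 1618 CPM (-0.37 ± 0.13). Rpl10, which is added late in assembly, had 2106 and 2049 CPM against 2440 CPM (-0.23 ± 0.13, edgeR adjusted p = 0.212).

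The stalk recruits the elongation factors. Rplp0, its base, had 2307 and 2456 CPM against 3223 CPM, and fell by 0.44 on the log2 scale (edgeR adjusted p = 0.025). Rplp1 had 1376 and 1432 CPM against 2382 CPM, with a log2 fold change of -0.76 ± 0.13. Its partner Rplp2 had 1098 and 1143 CPM against 1387 CPM and did not pass (-0.31 ± 0.14, edgeR adjusted p = 0.129). DESeq2 called only Rplp1 of the 3.

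Paralogs that belong to particular tissues had few gene counts or none. Rpl3l, the copy of Rpl3 in mature striated muscle, had a ratio of null to wild type of 0.584 (95% exact interval 0.274 to 1.26), with 8 and 9 reads against 15. Rpl10l, a copy active in testis, had 0 reads, and Rpl39l, also a testis copy, had a ratio of 0.601 (0.173 to 2.17).

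Levels per length spread widely in the wild type. Counts per kilobase of principal transcript, scaled to gene counts as RPKM, ran from 336 (Rpl18) to 6108 (Rps12) over the 74 well-counted members, with a median of 1912. Rplp1 stood at 4589 in the wild type. In the null libraries Rps12 stood at 2907 and 2963 and Rplp1 at 2829 and 2904 on the same scale, close to each other, whereas in the wild type Rps12 was the higher. The lowest values were those of Rpl3l (0.791), Rps27 (3.15) and Rpl34 (7.67), which go with their few reads. Reads that did not align uniquely are outside these counts, so few reads need not mean a low level of the message. The same limit holds for Rpl10l, Rpl39l, Rpl26 and Rpl30, and the part of such reads was not tested. The annotated transcripts of Rps15a, Rps20 and Rpl18 are 5179, 3706 and 2989 bases long although their coding sequences have 390, 357 and 564, so their levels depend strongly on which length is used. Per kilobase of coding sequence Rps15a stood at 5473 and Rps20 at 5748 in the wild type, against 9007 for Rps12.

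The size of the fall went with length. The coding length of the members ran from 75 (Rpl41) to 1257 bases (Rpl4), with a median of 468 against 1386 over all genes tested. Across the 74 well-counted members the log2 fold change rose with coding length, with Spearman's rho of 0.59, as a description over genes of the same 3 libraries. With principal transcript length rho was 0.34, and with the median length of a gene's protein-coding transcripts 0.37. Over all tested genes rho was 0.36, 0.32 and 0.26 with coding, principal and median length. Of the 33 with up to 450 coding bases, 28 fell, with a median of -0.62. Of the 41 with more, 22 fell, with a median of -0.38. Over all genes tested 10.2% were lower. The 3 with more than 900 coding bases were Rpl3, Rpl4 and Rplp0.

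Genes outside the set moved with length too. Among 584 other genes of over 300 and up to 450 coding bases the median log2 fold change was -0.56 and 38.4% were lower. The 25 members in that range had a median of -0.62, and 21 were lower. Over the whole set the members had a smaller SE (median 0.133, against 0.239 over all genes tested). The shares called are therefore not compared at equal precision. Up to 300 coding bases the medians were -0.66 in 236 other genes, of which 51.3% were lower, and -0.63 in 10 members, of which 8 were lower. From 450 to 600 bases they were -0.36 in 777 other genes and -0.55 in 19 members, with 26.4% and 14 of them lower. From 600 to 900 bases they were -0.21 in 1756 other genes and -0.35 in 19 members, with 14.8% and 7 of them lower. At 900 to 1500 bases the other 3591 genes were near 0 (-0.016) and the 4 members at -0.17. Above 3000 coding bases, where there is no member, the median was 0.35 and 21.4% were higher. By principal transcript length, 16 members of 500 to 750 bases had a median of -0.65 against -0.60 in 248 other genes. At 750 to 1000 bases 21 members were at -0.44 and 419 other genes at -0.51. At 1000 to 1500 bases 18 members were at -0.41 and 1199 other genes at -0.33. The 6 members of 1500 to 2000 bases had a median of -0.40 against -0.16 in 1491 other genes. The 3 of 2000 to 3000 bases had -0.50 against -0.028 in 2996. The 1 of 3000 to 5000 bases (Rps20) had -0.75 against 0.10 in 4094. The 1 above 5000 bases (Rps15a) had -0.80 against 0.28 in 2609. Up to 500 bases the 11 members were at -0.54 and 73 other genes at -0.98. The part of RNA quality, for which no file gives a value, was not tested.

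**Figure D2:**
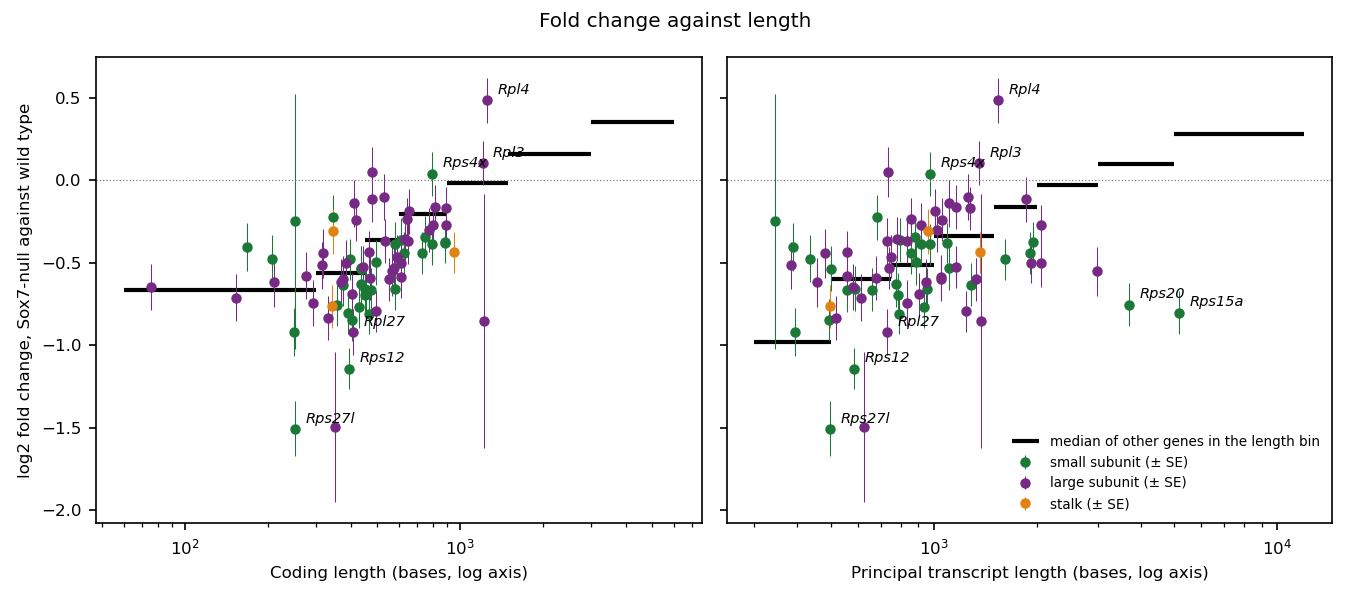
Log2 fold change of each member (points, ± SE, coloured by subunit) against its coding length (left) and its principal transcript length (right), both on log axes, with the median of all other tested genes in each length bin as black bars. The bars climb from -0.66 in the shortest coding bin to 0.35 in the longest. Rps27l and Rps12 lie below the bar of their coding length and Rpl4 above it.

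Once a smooth trend of each library on length and GC was removed, most of the calls were lost. With coding length, 4 members were lower (Rps12, Rps27l, Rpl27 and Rpl12) and 1 higher (Rpl4), where 6.35% and 9.51% of all genes were. With the length of the principal transcript, 4 were lower (Rps15a, Rps27l, Rpl18 and Rps20) and Rpl4 was higher, where 6.56% and 8.78% of all genes were. With the median length of a gene's protein-coding transcripts, 18 were lower and Rpl4 was higher, where 9.22% and 11.6% of all genes were. The member medians were -0.19, -0.039 and -0.29 in that order. The count of lower members therefore depends on which length is taken as that of the message. The median SE of the members also grew, from 0.133 to 0.155, 0.184 and 0.154.

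Rps27l was lower under all 3 measures of length, at -0.80 ± 0.16 with coding length (edgeR adjusted p = 0.0057), -0.53 with the principal transcript (adjusted p = 0.045) and -1.0 with the median transcript (adjusted p = 0.000243). Rps12 was at -0.76 ± 0.15 with coding length (edgeR adjusted p = 0.0055) and -0.86 with the median transcript (adjusted p = 0.000303), but at -0.50 with the principal transcript it did not pass (adjusted p = 0.082). Rpl27 was at -0.60, -0.76 and -0.46 with coding, median and principal length, and the last did not pass (edgeR adjusted p = 0.092). Rpl4 was higher under all 3, at 0.54, 0.84 and 0.68 with coding, principal and median length (edgeR adjusted p = 0.034, 0.011 and 0.0045).

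Other calls differed between the measures of length. Rps15a, Rps20 and Rpl18 were called lower with the principal transcript, at -0.89, -0.60 and -0.67, where their annotated lengths are the 3 longest of the set. With coding length they were at -0.24, -0.09 and -0.31 and did not pass (edgeR adjusted p = 0.324, 0.736 and 0.188). With the median transcript Rps20 passed at -0.71 (edgeR adjusted p = 0.0022), while Rps15a at -0.37 and Rpl18 at -0.29 did not. Rpl35a, Rpl39, Rps13, Rpl31, Rpl24 and Rpl9, all lower in the counts as deposited, were at or just above 0 with the principal transcript (0.053, 0.063, 0.024, 0.002, 0.065 and 0.14). With coding length these 6 lay between -0.30 and -0.031 and none passed. With the median transcript all 6 were negative, from -0.47 to -0.17, and Rps13 passed (edgeR adjusted p = 0.033).

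**Figure D3:**
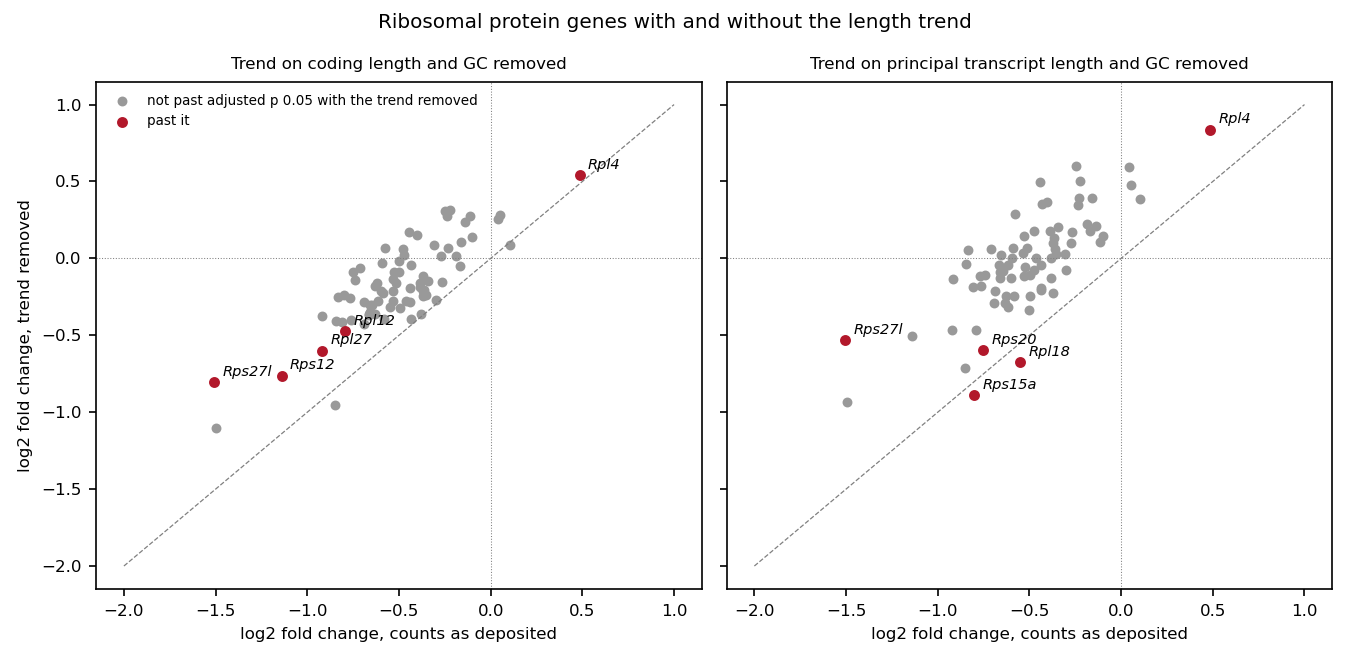
Log2 fold change of each member with the length and GC trend removed (vertical axis) against that from the counts as deposited (horizontal axis), with coding length on the left and principal transcript length on the right. Red points passed an adjusted p of 0.05 with the trend removed and the dashed line marks equal values. Most members move up from the line towards 0, and Rps27l and Rpl4 are red in both panels.

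Other complexes of many subunits also had more lower than higher genes in the counts as deposited. Of all genes tested there, 10.2% were lower and 11.3% higher. In the mitochondrial ribosome 42 of 73 genes were lower and 0 higher (0 also at an unadjusted p under 0.05 with edgeR, limma-voom and DESeq2), with a median of -0.64. In the respiratory chain 39 of 83 were lower and 4 higher (median -0.50), in the proteasome 21 of 36 and 0 (-0.62), and in the splicing core 11 of 23 and 0 (-0.61, with 1 higher at an unadjusted p under 0.05 with edgeR). With the coding length and GC trend removed, 19 of 73, 9 of 83, 14 of 36 and 4 of 23 genes of these 4 lists were lower. Beside them were 4 of the 77 members and 6.35% of all genes. The list medians were then -0.31, -0.12, -0.49 and -0.29, beside -0.19 for the members. With principal transcript length 18, 7, 6 and 4 were lower, beside 4 members and 6.56% of all genes. The list medians were then -0.35, 0.029, -0.29 and -0.29, beside -0.039 for the members. These differences between lists were not tested.

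**Figure D4:**
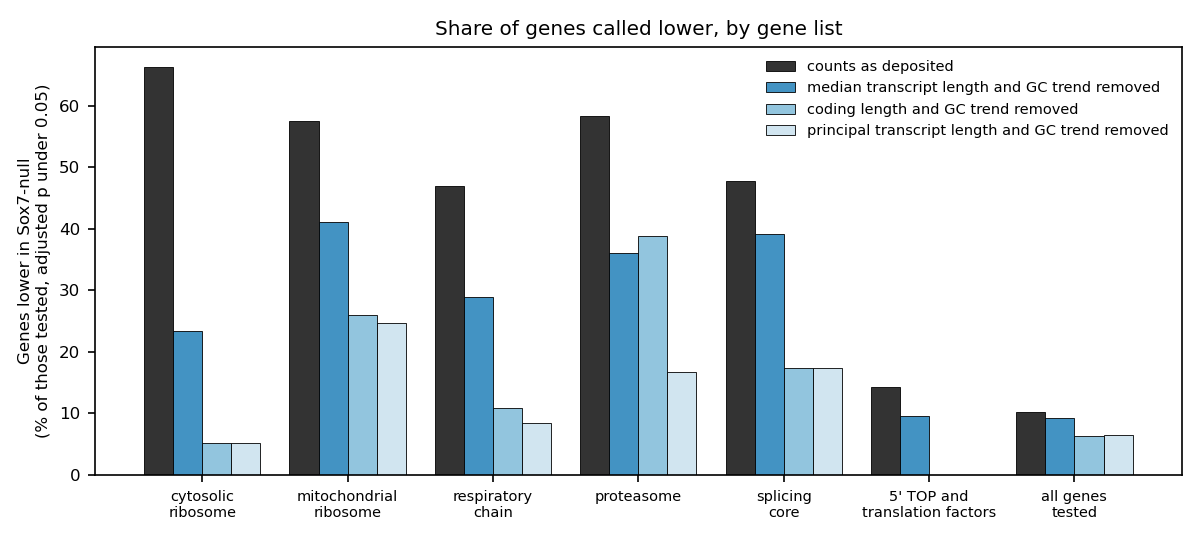
Share of the tested genes of each list that were lower in Sox7-null at an edgeR adjusted p under 0.05, from the counts as deposited (dark bars) and with the trend on median, coding or principal transcript length and GC removed (lighter bars). Cytosolic ribosomal proteins go from 66.2% to 23.4%, 5.19% and 5.19%, and the last group of bars gives all genes tested.

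Other messages known for a TOP tract or a role in translation went both ways. Of 21 tested, 3 were lower (14.3%) and 4 higher (19.0%), against 10.2% and 11.3% of all genes, with a median of -0.059 and a median coding length of 1083 bases. Eef2, the elongation factor that moves the ribosome along the message, had 49482 and 44610 reads against 24680 and rose by 0.89 ± 0.14 on the log2 scale. The initiation factor genes Eif4b (0.99 ± 0.18) and Eif4a2 (1.05 ± 0.22) rose as well. Tpt1, a short and abundant TOP message, had 57885 and 56718 reads against 82964, with a log2 fold change of -0.57 ± 0.11, and Eef1b2, a subunit of the elongation factor that reloads eEF1A, was at -0.60 ± 0.14. With the coding length trend removed Eef2, Eif4b, Eif4a2 and Hnrnpa1 were higher and 0 of the 21 lower, also at an unadjusted p under 0.05. Hnrnpa1 had only 113 and 112 reads against 51, and in the counts as deposited DESeq2 gave it an adjusted p of 0.229. Fau, which encodes a ribosomal protein fused to a ubiquitin-like protein and falls outside the naming rule, was at -0.25 ± 0.14 on the log2 scale, short of the threshold.

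Ribosomal protein paralogs outside the rule included 2 of 4 that fell and 0 that rose (0 also at an unadjusted p under 0.05 with edgeR, limma-voom and DESeq2). The shares over all genes were 10.2% and 11.3%. Rpl22l1, the paralog of Rpl22, fell from 8780 reads to 4207 and 4556 (-1.04 ± 0.15 on the log2 scale, edgeR adjusted p = 0.0010), while Rpl22 itself had -0.50 ± 0.14. With the coding length trend removed Rpl22l1 was at -0.38 and did not pass (edgeR adjusted p = 0.115). Rpl36al fell by 0.57, and Rpl7l1 (-0.56 ± 0.19) and Rps4y2 (-0.31 ± 0.19) did not pass. The 6 ribosomal protein pseudogene symbols held 202, 189 and 318 reads in all, and 0 of the 4 tested passed with edgeR, limma-voom or DESeq2 (2, 2 and 0 lower at an unadjusted p under 0.05).

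Among 18 genes that control ribosomal protein synthesis 3 rose (16.7%, against 11.3% of all genes) and 0 fell (1 lower at an unadjusted p under 0.05 with edgeR, DESeq2 and limma-voom), with 3 higher also when the coding length trend was removed. Those that rose were Ddit4 and Sesn2, which restrain mTORC1, and Eif4ebp1: Ddit4 with 2762 and 1976 reads against 275, Sesn2 with 366 and 286 against 44, and Eif4ebp1 with 4236 and 3997 against 2260. Eif4ebp1, whose product holds back the cap-binding protein, rose by 0.83 ± 0.17 on the log2 scale (edgeR adjusted p = 0.0062). Rheb, the activator of mTORC1, went from 3589 reads in wild type to 2460 and 2746 without passing (-0.50 ± 0.17, edgeR adjusted p = 0.051). Other inhibitors in the list did not pass: Tsc1 was at 0.55 ± 0.26, Tsc2 at 0.25 ± 0.22 and Eif4ebp2 at -0.025 ± 0.22. Neither did Mtor (-0.042 ± 0.21), Larp1 (0.22 ± 0.18), Myc (0.32 ± 0.22) or Mycn (0.55 ± 0.19).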

How the data were processed

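The authors deposited, for each library, raw read counts by gene symbol, made with CASAVA, TopHat2, HTSeq and DESeq2 1.10.1, per the submitters' processing notes. Those notes name human builds (hg19, GRCh37) while the symbols are those of mouse. The annotation is not given in the sources used here, nor is the strand setting. The 5 lines that name no gene did not enter any fit. Of gene counts and these lines together, reads with no feature were 8.10%, 8.52% and 11.7%. Ambiguous ones were 2.27%, 2.29% and 1.97%, and reads not uniquely aligned 10.4%, 11.6% and 22.3%. All genes were tested with edgeR 4.0.16 (quasi-likelihood, TMM, filterByExpr with a minimum count of 10; 13334 of 23337 genes kept) in R 4.3.3, with Benjamini-Hochberg adjustment over all of them, 1 residual and 11.8 prior degrees of freedom. Standard errors (SE) for edgeR were derived from its fold change and F value. DESeq2 1.42.0 and limma-voom (limma 3.58.1) were alternatives. Length trends were smooth terms (mgcv 1.9.3) on log2 length and GC in each library, removed through offsets. Only removal by principal transcript length was tried on simulated data. The trend added there was on that same length, so the trial cannot show which length suits these libraries. Removal by coding or median length was not simulated. Lengths came from GENCODE M21, which gave 99.0% of tested genes a transcript length and 96.1% a coding length. The median and coding lengths were added after the data were seen. Values for 1 null library against the wild type have no test.

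Members and gene lists were chosen with earlier results of these data known. The genes named were those of fixed roles in the ribosome, the 6 largest falls and rises past the threshold, paralogs with their parents, members past the threshold with and without the principal transcript length trend or with opposite signs, the 3 highest and lowest per length, and up to 4 genes of each neighbouring list by smallest p. Rps4x, Rpl22, Rpl12, Fau, Eef1b2, Tsc1, Tsc2, Eif4ebp2, Mtor, Larp1, Myc, Mycn, Hnrnpa1, Rpl26, Rpl29 and Rpl30 were added after their values were seen. Values of 1 member and 1 gene of a neighbouring list are not reported here, though both enter the counts.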

Additional observations from a re-analysis of the deposited data

How the results depend on the processing

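No paired analysis was possible because the labels give the groups no shared replicate numbers. The count of members lower, 51, lay between 35 (DESeq2) and 52 (DESeq2 size factors) over other scalings, tools and a minimum of 5 CPM, and was 53 with the GC trend removed, of which 46 were among the 51. The count was 4 with the transcript length and GC trend, with the length trend alone and with that trend fitted without the members, 7 with mean count added, 18 with median length, 4 with coding length and 3 with the coding length trend fitted without the members. Without a filter on low counts it was 0, as for all genes (58 members lower at an unadjusted p under 0.05). The 1 higher became 0 with DESeq2, without a filter and with mean count added, and 2 (with Rpl29) with the length trend alone. The cause of the losses with DESeq2 and without a filter was not tested. The median log2 fold change of -0.50 was -0.51 with DESeq2 size factors, DESeq2 and the GC trend removed, -0.50 with TMM without the members, -0.49 with upper quartile factors, without a filter and at 5 CPM or more. It was -0.039 with the transcript length and GC trend (-0.039 fitted without the members), -0.0031 with length alone, -0.19 with mean count added, -0.29 with median length, and -0.19 and -0.20 with coding length. Leaving out either null library gave -0.51 and -0.51, and a share lower by -3.34 and -3.27 percentage points, against -3.67 without Rn45s and the 10 other genes with most reads. With the transcript length and GC trend 6 named members that had passed the threshold changed sign: Rpl24 (0.065, or 0.064 fitted without the members), Rpl31 (0.0020, 0.000875), Rpl35a (0.053, 0.053), Rpl39 (0.063, 0.063), Rpl9 (0.14, 0.14) and Rps13 (0.024, 0.023). With length alone Rpl24 (0.0016), Rpl38 (0.13) and Rpl9 (0.020) did. Named members that had not passed also changed sign: Rpl10 (0.39 with length and GC, 0.25 with length alone), Rpl11 (0.10, 0.12), Rplp2 (0.027, 0.11), Rps6 (0.20, 0.12), Rps27 (0.60, 0.54) and, with length and GC, Rpl5 (0.097). Members with few reads (Rpl34, Rps27, Rpl3l) are limited by counting error.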
